A study of Homo sapiens with 12 samples.

Results

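Translation initiation factors were taken as the 62 genes, of 16389 in the count table, whose symbol starts with EIF and a digit from 1 to 6. The kinases EIF2AK1 to EIF2AK4 and read-through genes with a hyphen in the symbol were left out. Of these, 50 are protein-coding and 12 are processed pseudogenes in the annotation. HepG2, an established human liver cancer cell line, was grown for 48 h in medium with 5.5 mM glucose (LG) or 20 mM glucose (HG). Other HG and LG cultures then received 1 mM valproic acid (VPA), an inhibitor of histone deacetylases, for 12 h more (HGV and LGV). Each group has 3 libraries of poly(A)-selected RNA from the same line, and the sources used here do not state a vehicle, or whether untreated cells were harvested with the VPA-treated ones.

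Initiation brings the small ribosomal subunit and the initiator tRNA to the start codon of an mRNA. The trimeric GTPase eIF2 carries the initiator tRNA and eIF2B recharges eIF2 with GTP, while eIF1 and eIF1A guide start codon selection and the many-subunit eIF3 holds the complex together. eIF4F, made of the cap-binding protein eIF4E, the scaffold eIF4G and the helicase eIF4A, recruits the mRNA, and 4E-binding proteins block eIF4E. eIF5 triggers GTP hydrolysis, eIF5B joins the large ribosomal subunit and eIF6 keeps free subunits apart. In liver cells, which export large amounts of plasma protein, eIF2 and eIF4E are known points of control by stress kinases and mTOR.

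All 8 hepatocyte markers listed, among them ALB, AFP and APOB, were at or above 125 CPM (counts per 1000000 reads, scaled by edgeR's TMM factors) in the 12 libraries. Their summed level was 47400 to 52700 CPM in LG, 46500 to 54900 in HG, 36500 to 37200 in LGV and 41300 to 54900 in HGV, so LGV lay below the other groups, and the part of this in the results was not tested. Of 7 markers of blood, endothelial and stromal cells, CDH5 and COL1A1 had a row, and their summed level was 0.175 to 0.46 CPM in LG, 0.56 to 0.987 in HG, 0.942 to 1.81 in LGV and 2.24 to 4.14 in HGV. That sum was lowest in LG and highest in HGV, the other 5 are not analysed here, and its part in the results was not tested. Depth ran from 29798442 to 45572694 reads per library, so 3 reads stood for 0.0658 to 0.101 CPM. TMM factors ran from 0.879 to 0.961 in LG, 0.977 to 1.01 in HG, 0.969 to 1.09 in LGV and 1.05 to 1.09 in HGV, and therefore moved with the groups. Without these factors the median log2 fold change of all genes tested went from 0.01 to 0.11 for HG against LG, from -0.01 to 0.16 for LGV against LG, from 0.02 to 0.15 for HGV against HG and from 0.01 to 0.10 for HGV against LGV. In bulk RNA, fewer cells of a kind and less RNA per cell cannot be told apart.

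The genomic stretches ahead of 3 factors are shown for orientation, because EIF5A2 rose with VPA while EIF4G1 and EIF4G2 fell. Each is the part of the 250 bases upstream of the canonical transcript start that lies in no annotated exon of the gene, 5′ to 3′ on the strand of the gene, with capitals marking CACGTG, the E-box that MYC, USF and TFEB family factors bind. The sequence is from GRCh37 and the starts from GENCODE v44 lifted to it. EIF5A2 is shown at chr3:170626434-170626676 on the minus strand, EIF4G1 at chr3:184032144-184032282 on the plus strand and EIF4G2 at chr11:10830488-10830723 on the minus strand.
EIF5A2: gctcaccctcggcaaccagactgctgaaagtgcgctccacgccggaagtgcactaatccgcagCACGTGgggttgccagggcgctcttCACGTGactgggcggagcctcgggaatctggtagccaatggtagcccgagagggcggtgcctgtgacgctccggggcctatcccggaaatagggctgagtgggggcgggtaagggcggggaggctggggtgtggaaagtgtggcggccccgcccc
EIF4G1: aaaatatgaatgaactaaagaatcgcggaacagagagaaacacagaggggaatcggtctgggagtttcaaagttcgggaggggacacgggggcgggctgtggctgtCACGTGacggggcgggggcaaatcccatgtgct
EIF4G2: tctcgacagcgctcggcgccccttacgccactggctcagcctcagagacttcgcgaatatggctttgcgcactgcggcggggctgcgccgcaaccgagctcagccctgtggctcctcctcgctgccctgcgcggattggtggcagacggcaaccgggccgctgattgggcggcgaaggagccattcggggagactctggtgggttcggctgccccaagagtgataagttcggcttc
The EIF4G2 stretch has 66.5% G and C and 24 CpG, and holds no E-box. The full 250 base windows of EIF5A2 and EIF4G1 hold 2 E-boxes each, of which the EIF4G1 stretch shows 1. EIF4B, which also fell with VPA, has 1 E-box in its window and is not shown.

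Over the full 250 base windows, 12 of the 50 protein-coding factors held CACGTG (24%), compared with 1159 of 13110 protein-coding genes of the table (8.84%). The 12 were EIF1B, EIF2B3, EIF3A, EIF3F, EIF3K, EIF4A3, EIF4B, EIF4E, EIF4EBP1, EIF4G1, EIF4H and EIF5A2. It was in 6 of 23 windows of factors that fell with VPA in either medium (EIF1B, EIF3F, EIF4B, EIF4EBP1, EIF4G1 and EIF4H) and in 1 of 3 that rose (EIF5A2), which are too few to compare. The cAMP response element TGACGTCA was in 1 factor window (EIF3H, 2%; 2.94% of all), the CHOP and ATF4 composite element TGATGNAA in 0 (1.34% of all) and TATAAA in 2 (EIF2S2 and EIF4A2, 4%; 5.21% of all). All were searched on both strands, sites of different motifs can share bases, and a match only says that the letters are there.

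Which initiation factors respond to VPA was asked in each medium with separate libraries. With VPA the scaffolds EIF4G1 and EIF4G2, the helicase cofactor EIF4B, the inhibitor EIF4EBP1 and the GTPase activator EIF5 fell in both media, while the cap-binding relative EIF4E3 and the eIF5A paralogue EIF5A2 rose in both. In LGV against LG, 2 factors rose and 18 fell of 62 tested (edgeR quasi-likelihood test, FDR ≤ 0.05, the Benjamini-Hochberg adjusted p over all genes tested), with a background of 21.7% of all genes rising and 19.9% falling. In HGV against HG, 3 rose and 23 fell of 60 tested, against 25.8% and 20.2% of all genes. The shares of all genes, here and below, cover genes of any level and were not matched to the factors. The paper reports that with VPA in high glucose, genes low at the start rose and highly expressed ones fell. The part of this in the counts was not tested. The median log2 fold change was -0.18 over the factors in LGV against LG and -0.30 in HGV against HG (all genes -0.01 and 0.02). With library size alone it was -0.03 and -0.18 (all genes 0.16 and 0.15).

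LGV against LG and HGV against HG share no library. A total of 17 factors fell in both media, which was 94.4% of those that fell in LG medium and 73.9% of those in HG medium (all genes 73.6% and 71.8%). They were EIF2B4, EIF2B5, EIF2D, EIF2S2, EIF3B, EIF3D, EIF3F, EIF3G, EIF4A2, EIF4B, EIF4EBP1, EIF4ENIF1, EIF4G1, EIF4G2, EIF5, EIF6 and the pseudogene EIF4BP3. No factor was called in opposite directions. With library size alone in place of TMM factors, 8 factors rose and 10 fell in LGV against LG (28.2% and 12.3% of all genes), and 8 rose and 16 fell in HGV against HG (32% and 15% of all genes). The calls lost were those of EIF2B5, EIF2S2, EIF3D, EIF3F, EIF3G, EIF4A2, EIF4ENIF1 and EIF5 in LG medium and of EIF1B, EIF2B5, EIF3C, EIF3F, EIF3G, EIF4H and EIF6 in HG medium. A factor is said to pass a test, or to pass none, in the fit with TMM factors unless another setting is named. Losses named for a single factor below need not be all of its losses. No called factor changed its sign with library size alone, and 11 of the 20 calls in LG medium and 16 of the 26 in HG medium passed in each of the scalings, filters, tests and left-out libraries tried. EIF2B4, EIF2D, EIF4B, EIF4E3, EIF4EBP1, EIF4G1, EIF4G2 and EIF5A2 are on both of these lists.

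**Figure D1:**
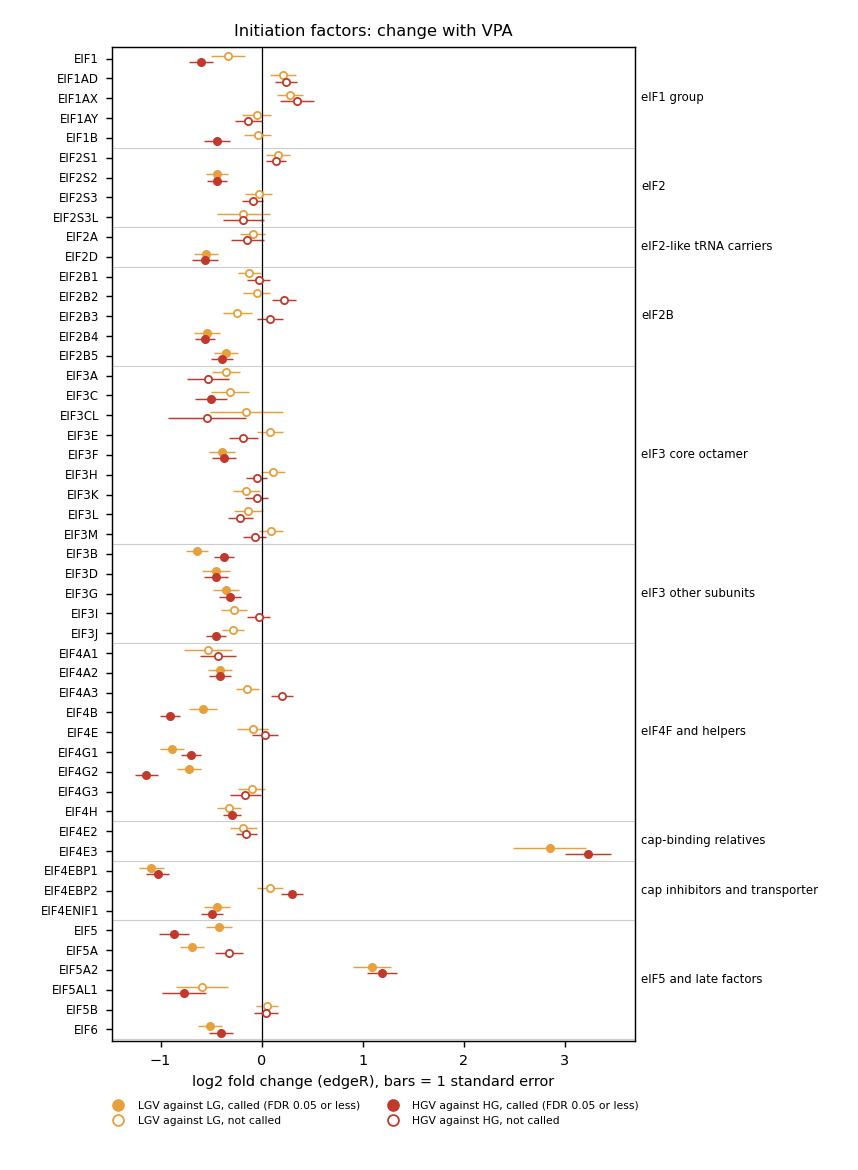
The log2 fold change with VPA (horizontal axis, edgeR, bars 1 standard error) of the 50 protein-coding factors by complex, in LG medium (orange) and HG medium (red), filled where the FDR was 0.05 or less. Most filled points lie left of 0, and EIF4E3 at 2.85 and 3.23 and EIF5A2 at 1.09 and 1.19 lie to the right.

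The question of what changes with high glucose in the absence of VPA was addressed by HG against LG, and the same step under VPA by HGV against LGV. EIF3A, the largest eIF3 subunit and a part of its core, fell most among the protein-coding factors in both comparisons, and EIF5, EIF4G2, EIF4G3, EIF4B and EIF2A fell with it. In HG against LG, 0 factors rose and 8 fell of 61 tested, with 12% of all genes rising and 12.7% falling, so the share falling (13.1%) was close to that of the table. The count of 0 is from edgeR's quasi-likelihood test, by which 2 factors had a rise with an unadjusted p under 0.05, and 1 factor, EIF1B, was called higher by the likelihood ratio test and by DESeq2. In HGV against LGV, 3 rose and 13 fell of 59 tested (all genes 21.2% and 19.5%). These comparisons share no library with each other, but each shares a group with the VPA comparisons. The 6 factors named fell in both, which was 75% of the 8 and 46.2% of the 13 (all genes 77.4% and 48.8%). EIF4G1 and EIF5A fell in HG against LG alone, and EIF2B5, EIF2S1, EIF3J, EIF3M, EIF5A2 and the pseudogenes EIF4BP3 and EIF4HP2 passed the test in HGV against LGV alone, where EIF2B3, EIF4A3 and EIF4E3 rose.

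The glucose calls without VPA, of factors and of all genes, depended on which libraries were used. Leaving out LG replicate 1 or HG replicate 2 left 1 factor called, leaving out HG replicate 3 left 2 and LG replicate 2 left 4, while leaving out LG replicate 3 gave 16. Over all genes, calls went from 3813 of 15452 to 1933 of 15523 without LG replicate 1 and 2675 of 15435 without HG replicate 2. They were 2076 of 15432 without HG replicate 3, 2552 of 15389 without LG replicate 2 and 5338 of 15407 without LG replicate 3. With library size alone 2 factors rose and 3 fell in HG against LG (14.1% and 8.39% of all genes), and 5 rose and 10 fell in HGV against LGV (23.2% and 14.2%). EIF3A was the 1 factor of 8 that passed in every setting tried in HG against LG, and EIF2B3, EIF3A, EIF3J, EIF4B, EIF4G2 and EIF5 were the 6 of 16 that did so in HGV against LGV, where leaving out LGV replicate 3 left 8 calls and LGV replicate 2 left 9. Over all genes, calls there went from 6604 of 16208 to 4516 of 16197 and 4791 of 16237.

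**Figure D2:**
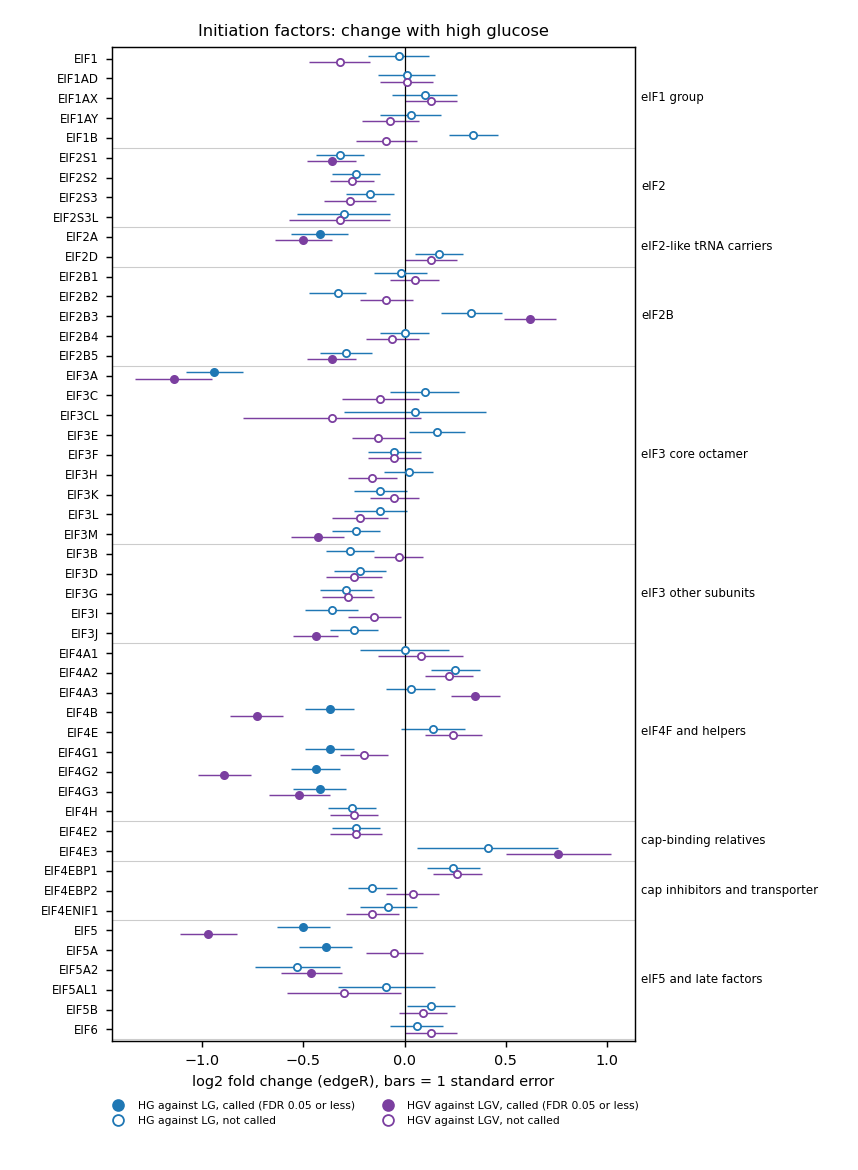
The log2 fold change with high glucose (horizontal axis, edgeR, bars 1 standard error) of the 50 protein-coding factors by complex, without VPA (blue) and with VPA (purple), filled where the FDR was 0.05 or less. EIF3A lies furthest left, at -0.94 and -1.14, and the filled points right of 0 (EIF2B3, EIF4A3 and EIF4E3) are all from HGV against LGV.

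Whether the VPA response differed between media was tested with the glucose by VPA interaction, using the 12 libraries. Of all 16389 genes 7 passed (0.0427%), and none of the 62 factors did by edgeR's quasi-likelihood test. None passed by edgeR's likelihood ratio test or by DESeq2 either, and 2 factors had an unadjusted edgeR p under 0.05. These were EIF4G2, with an interaction of -0.41 ± 0.16 (SE) on the log2 scale (edgeR FDR 0.316), and the exon junction helicase EIF4A3, with 0.36 ± 0.16 (edgeR FDR 0.403). A factor called in 1 medium and not in the other is therefore not shown to respond differently.

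Among the proteins that act at the cap, EIF4E3 had the largest change of all factors. This relative of eIF4E binds the cap through contacts unlike those of eIF4E. Its level was 0.524, 0.349 and 0.511 CPM in the LG libraries and 0.666, 0.658 and 0.476 in HG. It was 4.98, 2.18 and 2.70 CPM in LGV and 5.18, 6.78 and 4.88 in HGV, so every VPA library lay above every untreated one. The fold was 7.21 in LG medium (log2 2.85 ± 0.36, FDR 2e-05) and 9.37 in HG medium (log2 3.23 ± 0.23, FDR 3.9e-07). Reads on it were few, from 14 to 22 in an untreated library and from 67 to 285 in a VPA library. Between HGV and LGV it differed by 0.76 ± 0.26 (FDR 0.0243), but the libraries overlapped, and the FDR reached 0.115 when a library was left out. Exons of EIF4E3 (chr3:71724565-71803924, minus strand) overlap GPR27 on the other strand, which is not analysed here, so reads cannot be assigned between them if strand was not used. They also overlap the gene ENSG00000285708 on the same strand, where strand does not help. Of the 50-base stretches of EIF4E3, 5.1% also occur in other genes, ENSG00000285708 first.

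EIF4E itself, the cap-binding subunit of eIF4F, passed no test. It measured 11.8, 13.2 and 13.5 CPM in LG, 15.6, 12.3 and 14 in HG, 12.9, 11.4 and 11.6 in LGV, and 13.4, 14.6 and 14.7 in HGV. Its log2 fold change was -0.09 ± 0.15 (FDR 0.661) in LGV against LG, 0.03 ± 0.13 (FDR 0.867) in HGV against HG, 0.14 ± 0.16 (FDR 0.556) in HG against LG and 0.24 ± 0.14 (FDR 0.187) in HGV against LGV. EIF4E2, a cap-binding competitor that represses translation, was between 55.8 and 86.6 CPM and passed no test in these 4 comparisons.

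EIF4EBP1, the inhibitor that releases eIF4E when mTOR phosphorylates it, fell to about the same extent in both media. The LG libraries had 150, 124 and 139 CPM and the HG libraries 140, 167 and 170, compared with 68.6, 65.6 and 58.1 in LGV and 75.5, 86.5 and 71.4 in HGV. No VPA library reached an untreated one. The difference on the log2 scale was -1.09 ± 0.12 (FDR 6.92e-06) in LG medium and -1.03 ± 0.11 (FDR 1.34e-05) in HG medium, and 0.24 ± 0.13 (FDR 0.18) and 0.26 ± 0.12 (FDR 0.0959) for glucose without and with VPA. With library size alone the last of these passed the threshold.

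Its paralogue EIF4EBP2 stayed between 251 and 363 CPM in the 12 libraries. With VPA its log2 fold change was 0.08 ± 0.13 (FDR 0.674) in LG medium and 0.30 ± 0.11 (FDR 0.0367) in HG medium, a call that DESeq2's size factors, DESeq2's test and 5 of the 6 left-out libraries did not keep. EIF4ENIF1, which carries eIF4E into the nucleus and into P bodies, fell by 0.44 ± 0.13 on the log2 scale (FDR 0.0144) in LG medium and by 0.49 ± 0.11 (FDR 0.00212) in HG medium. With library size alone the LG medium call of EIF4ENIF1 was lost. Of this group of inhibitors and transporter, none passed in either glucose comparison.

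Of the eIF4F scaffolds and their relative EIF4G2, EIF4G1 and EIF4G2 fell with VPA in both media and EIF4G3 passed in neither. EIF4G1, the main scaffold that links eIF4E, eIF4A, poly(A)-binding protein and eIF3, measured 759, 683 and 624 CPM in LG, 511, 533 and 526 in HG, 343, 390 and 370 in LGV, and 346, 315 and 308 in HGV. The LG libraries were the highest and the VPA libraries the lowest in either medium. With VPA it fell by 0.89 ± 0.12 on the log2 scale (FDR 4.88e-05) in LG medium and by 0.70 ± 0.10 (FDR 0.000101) in HG medium. In HG against LG it fell by 0.37 ± 0.12 (FDR 0.0290). That call was lost with library size alone, upper quartile scaling, the replicate block and without 5 of the 6 libraries in turn.

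EIF4G2, also named DAP5, lacks the eIF4E-binding part and serves translation that does not depend on the cap. It measured 1090, 1110 and 1050 CPM in LG, 858, 727 and 767 in HG, 603, 712 and 639 in LGV, and 358, 333 and 375 in HGV. The 4 groups did not overlap and HGV was lowest. On the log2 scale the change was -0.72 ± 0.12 (FDR 0.000304) with VPA in LG medium, -1.14 ± 0.11 (FDR 3.73e-06) in HG medium, -0.44 ± 0.12 (FDR 0.0102) in HG against LG and -0.89 ± 0.13 (FDR 4.78e-05) in HGV against LGV. The call of EIF4G2 in HG against LG was lost when some library was left out. EIF4G3, a second scaffold, passed in the glucose comparisons alone, with -0.42 ± 0.13 (FDR 0.0202) and -0.52 ± 0.15 (FDR 0.00896), and had -0.10 ± 0.13 (FDR 0.571) and -0.16 ± 0.15 (FDR 0.389) with VPA. Its call in HG against LG was lost with library size alone and with upper quartile scaling, and both glucose calls were lost when some library was left out.

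EIF4B, which stimulates the helicase, fell in all 4 comparisons. Its level was 594, 680 and 548 CPM in LG, 479, 431 and 478 in HG, 343, 459 and 407 in LGV, and 235, 258 and 247 in HGV. HGV lay below all other libraries, and HG and LGV overlapped. With VPA its log2 fold change was -0.58 ± 0.14 (FDR 0.00371) in LG medium and -0.91 ± 0.10 (FDR 1.29e-05) in HG medium, and with glucose it was -0.37 ± 0.12 (FDR 0.0324) and -0.73 ± 0.13 (FDR 0.000363). The call in HG against LG was lost with library size alone, upper quartile scaling, the replicate block and when some library was left out. Of the 50-base stretches of its transcript, 33% also occur in other genes, mostly EIF4B pseudogenes. EIF4H, a similar cofactor, fell by 0.29 ± 0.09 in HGV against HG (FDR 0.0244).

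The helicases of the family behaved unequally. EIF4A2 fell with VPA by 0.41 ± 0.12 (FDR 0.0128) in LG medium and by 0.41 ± 0.11 (FDR 0.00672) in HG medium on the log2 scale, from 359, 385 and 424 CPM in LG and 497, 408 and 466 in HG to 284, 301 and 287 in LGV and 333, 346 and 353 in HGV. Its call in LG medium was lost with library size alone. EIF4A3, which belongs to the exon junction complex, rose by 0.35 ± 0.12 (FDR 0.0295) in HGV against LGV, a call lost without 4 of the 6 libraries. EIF4A1, the helicase usually dominant in growing cells, had between 3.22 and 6.84 CPM in the 12 libraries. Its log2 fold change with VPA was -0.53 ± 0.24 (FDR 0.0968) in LG medium, which passed without LG replicate 1, and -0.43 ± 0.18 (FDR 0.0665) in HG medium, which passed with DESeq2's size factors and test, the replicate block and without HG replicate 1 or HGV replicate 3. The level of EIF4A1 is uncertain, because 100% of its 50-base stretches also occur in other annotated genes, among them the read-through gene SENP3-EIF4A1, which overlaps it on the same strand (chr17:7476142-7482324 for EIF4A1), and reads that fit both cannot be assigned.

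**Figure D3:**
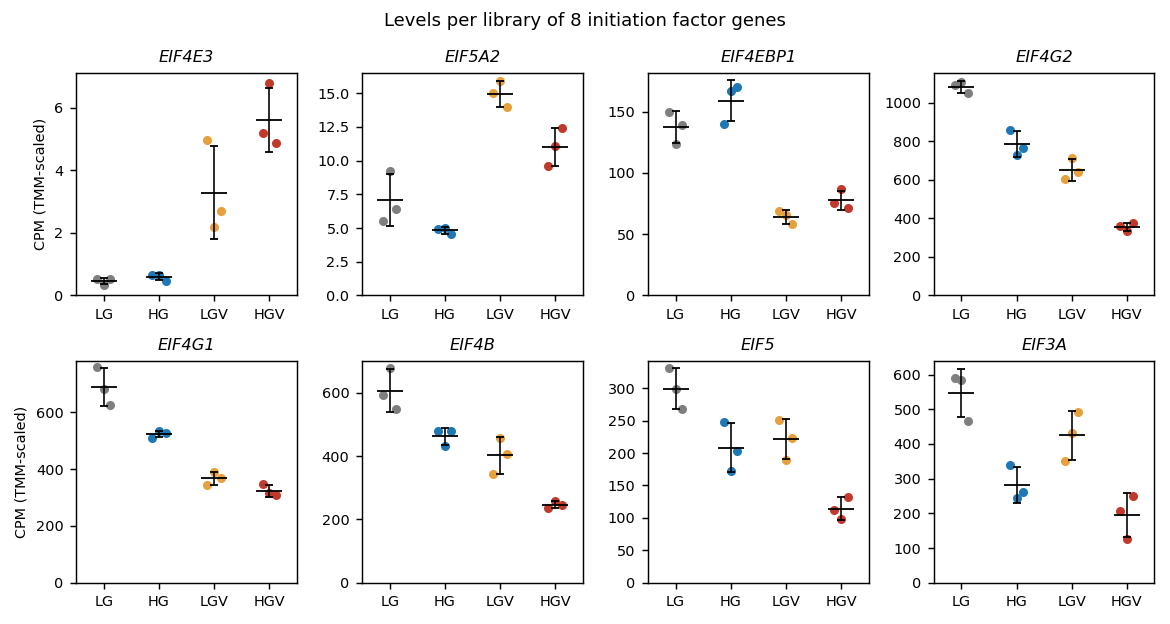
Levels of 8 factor genes in CPM scaled by TMM factors (vertical axis from 0) in the 3 libraries of each group (points), with the mean and SD (bars). EIF4E3 and EIF5A2 are high in LGV and HGV, EIF4EBP1 is low there, and EIF4G2 steps down from at least 1050 CPM in LG to at most 375 in HGV.

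The summed level of the 4 eIF2 genes was 481 to 557 CPM in LG, 414 to 461 in HG, 449 to 514 in LGV and 382 to 424 in HGV. High-glucose libraries were thus below low-glucose ones of the same treatment, although as a share of reads LG (0.0432% to 0.0494%) and HG (0.0416% to 0.0457%) overlapped. EIF2S1, the alpha subunit that stress kinases phosphorylate, measured 70.5, 81.6 and 77 CPM in LG, 63.1, 56.6 and 61.8 in HG, 79.9, 92.7 and 81.6 in LGV, and 65.2, 71.7 and 63.6 in HGV. The HG libraries were below the LG ones and the HGV below the LGV ones. Its fall in HGV against LGV was 0.36 ± 0.12 (FDR 0.0207, not kept with upper quartile scaling), while HG against LG had -0.32 ± 0.12 (FDR 0.0638). Its log2 fold change with VPA was 0.16 ± 0.12 (FDR 0.300) in LG medium and 0.14 ± 0.10 (FDR 0.274) in HG medium, and with library size alone both passed the threshold as rises.

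EIF2S2, the beta subunit, fell with VPA by 0.44 ± 0.11 (FDR 0.00595) in LG medium and by 0.44 ± 0.10 (FDR 0.00334) in HG medium. It measured 145, 155 and 163 CPM in LG and 118, 108 and 114 in LGV, and 137, 120 and 131 in HG and 93.5, 91.5 and 102 in HGV. EIF2S3, the gamma subunit, was between 217 and 317 CPM and passed no test, and its copy EIF2S3L, named EIF2S3B in the newer annotation, was between 1.72 and 3.34 CPM. The LG call of EIF2S2 was lost with library size alone.

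Among proteins that bring tRNA without eIF2, EIF2D responded to VPA and EIF2A to glucose. EIF2D had -0.55 ± 0.12 (FDR 0.00152) and -0.56 ± 0.13 (FDR 0.00302) with VPA in LG and HG medium, and 0.17 ± 0.12 (FDR 0.339) and 0.13 ± 0.13 (FDR 0.477) with glucose. EIF2A had -0.42 ± 0.14 (FDR 0.0317) in HG against LG and -0.50 ± 0.14 (FDR 0.00726) in HGV against LGV, and -0.09 ± 0.12 (FDR 0.606) and -0.14 ± 0.16 (FDR 0.491) with VPA. The HG and LG libraries of EIF2A overlapped, with a lowest LG value of 138 CPM and a highest HG value of 139 CPM. The HG against LG call was lost with library size alone, with upper quartile scaling and without a filter. Both glucose calls were lost when some library was left out. Exons of EIF2A overlap SERP1 on the other strand, so reads cannot be assigned between them if strand was not used.

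Of the 5 subunits of eIF2B, the exchange factor of eIF2, EIF2B4 and EIF2B5 fell with VPA in both media. EIF2B4, the delta subunit, went from 110, 110 and 107 CPM in LG to 61.9, 82.0 and 79.8 in LGV, and from 101, 112 and 109 in HG to 69.0, 78.0 and 70.6 in HGV. Both changes left no overlap, at -0.54 ± 0.13 (FDR 0.00319) and -0.56 ± 0.10 (FDR 0.000511). EIF2B5, the catalytic epsilon subunit, measured 85.1, 92.8 and 80.4 CPM in LG, 61.9, 74.6 and 71.6 in HG, 57.6, 72.4 and 71.0 in LGV, and 52.9, 55.8 and 50.3 in HGV. It fell by 0.35 ± 0.12 (FDR 0.0324) and 0.39 ± 0.11 (FDR 0.01) with VPA and by 0.36 ± 0.12 (FDR 0.0270) in HGV against LGV, had -0.29 ± 0.13 (FDR 0.103) in HG against LG, and lost each of these calls with library size alone.

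EIF2B3, the gamma subunit, went the other way with glucose under VPA. It had 24.2, 23.5 and 24.8 CPM in LGV and 32.5, 40.8 and 39.4 in HGV, a rise of 0.62 ± 0.13 on the log2 scale (FDR 0.000801) that every setting kept. Without VPA it had 28.9, 24.0 and 33.5 CPM in LG and 31.2, 38.3 and 37.4 in HG, which overlapped (0.33 ± 0.15, FDR 0.120). EIF2B1 and EIF2B2, the alpha and beta subunits, passed no test with TMM factors, and EIF2B2 passed as a rise in HGV against HG with library size alone.

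For the eIF1 group, EIF1, which rejects wrong start codons, had 1320, 1620 and 1060 CPM in LG, 1150, 1340 and 1380 in HG, 883, 1250 and 1030 in LGV, and 815, 973 and 768 in HGV. It fell in HGV against HG by 0.60 ± 0.12 (FDR 0.00176), where the libraries did not overlap. In LGV against LG it had -0.33 ± 0.17 (FDR 0.132), in HG against LG -0.03 ± 0.15 (FDR 0.917) and in HGV against LGV -0.32 ± 0.15 (FDR 0.101). Its paralogue EIF1B fell by 0.44 ± 0.13 in HGV against HG (FDR 0.0173, lost with library size alone), and EIF1AD, EIF1AX and EIF1AY passed no test with TMM factors, while EIF1AD and EIF1AX passed as rises with VPA with library size alone.

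In eIF3, the platform that binds the small subunit and eIF4G, the calls were all falls. With VPA, 4 of 14 genes fell in LG medium (EIF3B, EIF3D, EIF3F and EIF3G) and 6 in HG medium (the same 4 with EIF3C and EIF3J), with medians of -0.28 and -0.34. These were 28.6% and 42.9% of the eIF3 genes, against 19.9% and 20.2% of all genes falling. In the core octamer, made of subunits a, c, e, f, h, k, l and m, 1 and 2 of 9 genes fell (11.1% and 22.2%, below and close to the share of all genes), and among the other subunits 3 and 4 of 5 (60% and 80%). With library size alone 1 and 3 of the 14 fell, and EIF3H and EIF3M passed as rises in LGV against LG. The medians of the 14 genes were then -0.11 and -0.22. The summed level of the 14 genes was 0.299% to 0.338% of reads in LG, 0.282% to 0.298% in HG, 0.299% to 0.313% in LGV and 0.258% to 0.277% in HGV.

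EIF3A was the member of eIF3 that changed most with glucose. It measured 590, 583 and 466 CPM in LG and 340, 243 and 261 in HG, a fall of 0.94 ± 0.14 (FDR 0.000106). With VPA it measured 352, 431 and 492 CPM in LGV and 208, 127 and 251 in HGV, a fall of 1.14 ± 0.19 (FDR 0.000173). The high-glucose libraries were below all of the low-glucose ones in both cases. With VPA itself it had -0.35 ± 0.14 (FDR 0.0659) in LG medium and -0.53 ± 0.21 (FDR 0.0551) in HG medium, neither of which was called. The first passed with the likelihood ratio test, the replicate block and without LG replicate 3, and the second with these tests, DESeq2's size factors and test, the shared fit of 12 libraries and without HGV replicate 3. In HGV against LGV it was joined by EIF3J at -0.44 ± 0.11 (FDR 0.00491) and EIF3M at -0.43 ± 0.13 (FDR 0.0127), and in HG against LG by no other subunit.

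EIF3B, the scaffold subunit with an RNA-binding part, fell with VPA by 0.64 ± 0.11 (FDR 0.000407) in LG medium and by 0.37 ± 0.10 (FDR 0.00910) in HG medium. It had 400, 382 and 391 CPM in LG, 301, 327 and 331 in HG, 238, 259 and 251 in LGV, and 243, 265 and 233 in HGV. The LGV and HGV libraries overlapped. EIF3D fell by 0.45 ± 0.14 (FDR 0.0206) and 0.45 ± 0.12 (FDR 0.00691), EIF3F by 0.39 ± 0.13 (FDR 0.0241) and 0.37 ± 0.12 (FDR 0.0205), and EIF3G by 0.35 ± 0.13 (FDR 0.0427) and 0.31 ± 0.11 (FDR 0.0425), and of these calls only that of EIF3D in HG medium was kept with library size alone. EIF3E, EIF3H, EIF3I, EIF3K and EIF3L passed no test with TMM factors. Of the 50-base stretches of EIF3C and EIF3CL, 98.8% and 98.7% occur in other genes, chiefly in each other, so their low levels, at most 13.5 and 0.574 CPM, are uncertain.

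EIF5, which makes eIF2 hydrolyse its GTP at the start codon, fell in all 4 comparisons. It measured 331, 299 and 268 CPM in LG, 248, 173 and 203 in HG, 251, 190 and 224 in LGV, and 112, 97.8 and 133 in HGV. HGV lay below all other libraries, and HG and LGV overlapped. Its change on the log2 scale was -0.42 ± 0.13 (FDR 0.0197) with VPA in LG medium, -0.87 ± 0.15 (FDR 0.000410) with VPA in HG medium, -0.50 ± 0.13 (FDR 0.0104) in HG against LG and -0.97 ± 0.14 (FDR 4.63e-05) in HGV against LGV. The first was lost with library size alone, with upper quartile scaling and when some library was left out. The call in HG against LG was also lost when some library was left out. The difference between the VPA responses was -0.43 ± 0.21 (FDR 0.441 for the interaction).

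EIF5A2 rose with VPA while EIF5A, which also carries the hypusine residue and helps ribosomes past proline stretches, was lower. EIF5A2 measured 5.53, 9.21 and 6.43 CPM in LG, 4.95, 4.99 and 4.54 in HG, 15, 15.9 and 14 in LGV, and 9.57, 11.1 and 12.4 in HGV. The VPA libraries were above all untreated ones. It rose by 1.09 ± 0.19 (FDR 0.000377) in LG medium and by 1.19 ± 0.15 (FDR 3.72e-05) in HG medium, and was lower by -0.46 ± 0.15 (FDR 0.0182, lost with library size alone) in HGV against LGV.

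EIF5A measured 323, 291 and 282 CPM in LG, 193, 224 and 256 in HG, 168, 205 and 179 in LGV, and 165, 219 and 156 in HGV. LG was highest and the other groups overlapped. It fell by 0.69 ± 0.12 (FDR 0.000406) in LGV against LG and by 0.39 ± 0.13 (FDR 0.0343) in HG against LG, with -0.32 ± 0.14 (FDR 0.0878) in HGV against HG and -0.05 ± 0.14 (FDR 0.792) in HGV against LGV. The call in HG against LG was lost with library size alone, upper quartile scaling, the replicate block, the fit of 12 libraries and without 4 of the 6 libraries in turn. HGV against HG passed with DESeq2's test, the replicate block and without HG replicate 1 or HGV replicate 2. Of its 50-base stretches 38.7% occur in other genes, mainly EIF5AL1, which had at most 2.09 CPM and fell by 0.77 ± 0.22 in HGV against HG (FDR 0.0121).

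EIF5B, the GTPase of subunit joining, did not pass in any comparison. It lay between 115 and 146 CPM, with a log2 fold change of 0.05 ± 0.11 (FDR 0.768), 0.04 ± 0.12 (FDR 0.823), 0.13 ± 0.12 (FDR 0.466) and 0.09 ± 0.12 (FDR 0.575) in LGV against LG, HGV against HG, HG against LG and HGV against LGV. EIF6 measured 282, 240 and 247 CPM in LG, 230, 275 and 281 in HG, 165, 185 and 187 in LGV, and 177, 222 and 198 in HGV. Untreated libraries were above VPA libraries of the same medium. It fell by 0.51 ± 0.12 (FDR 0.00324) and by 0.40 ± 0.12 (FDR 0.0149, lost with library size alone), and had 0.06 ± 0.13 (FDR 0.778) and 0.13 ± 0.13 (FDR 0.418) with glucose.

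The balance between related genes was followed as the log2 ratio of CPM in each library. This ratio does not depend on the scaling of a library, and as it is not per length, its change between groups can be read but not its level. EIF4E3 over EIF4E went from -4.82 ± 0.38 (SD, n = 3) in LG and -4.55 ± 0.32 in HG to -1.95 ± 0.53 in LGV and -1.36 ± 0.24 in HGV. EIF5A2 over EIF5A went from -5.43 ± 0.44 and -5.53 ± 0.27 to -3.62 ± 0.12 and -4.02 ± 0.34, and EIF4EBP1 over EIF4EBP2 from -1.12 ± 0.27 and -0.74 ± 0.18 to -2.28 ± 0.14 and -2.06 ± 0.03. In these 3 pairs the VPA libraries did not overlap the untreated ones. EIF1AY over EIF1AX, at -0.35 ± 0.05 in LG, -0.39 ± 0.22 in HG, -0.68 ± 0.05 in LGV and -0.88 ± 0.23 in HGV, did not overlap either, with a lowest untreated value of -0.60 and a highest VPA value of -0.62.

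The ratio of EIF4G1 over EIF4G2 was -0.65 ± 0.12 in LG, -0.58 ± 0.15 in HG, -0.82 ± 0.04 in LGV and -0.14 ± 0.13 in HGV, so the HGV libraries were set apart from the rest. EIF4G1 over EIF4G3 was 2.49 ± 0.08 and 2.54 ± 0.16 without VPA, and 1.69 ± 0.10 and 2.02 ± 0.29 with VPA in LG and HG medium. EIF1 over EIF1B was 3.80 ± 0.18 in LG, 3.46 ± 0.06 in HG, 3.53 ± 0.21 in LGV and 3.31 ± 0.11 in HGV. EIF4A2 over EIF4A1, EIF4E2 over EIF4E, EIF2S3L over EIF2S3 and EIF3CL over EIF3C overlapped between treated and untreated libraries of the same medium.

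**Figure D4:**
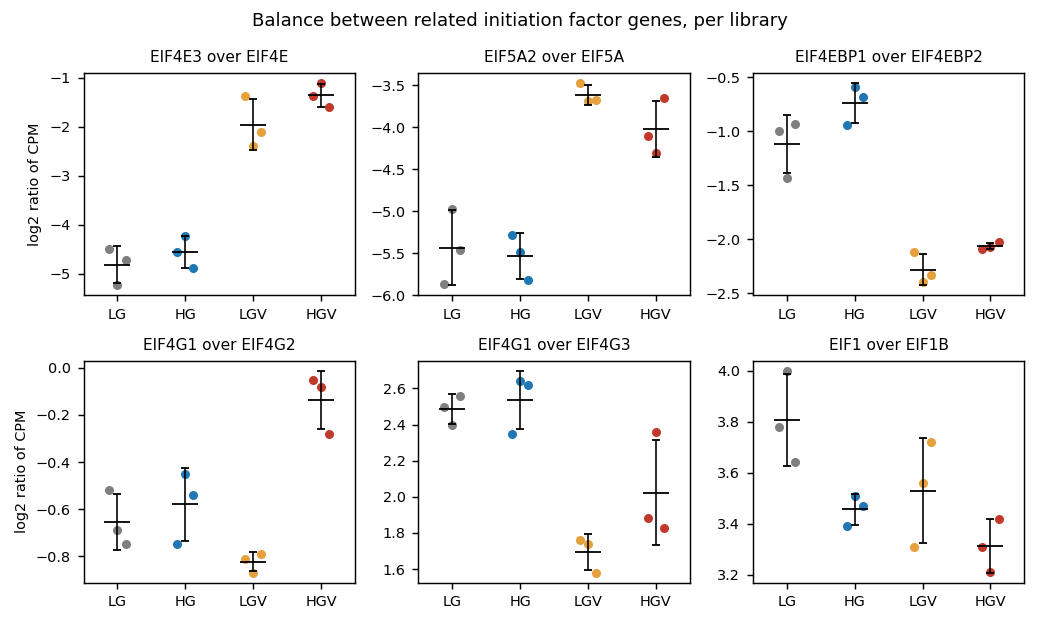
The log2 ratio of CPM (vertical axis) of 6 pairs of related factor genes in the 3 libraries of each group (points), with the mean and SD (bars). VPA libraries stand apart from all untreated ones for EIF4E3 over EIF4E, EIF5A2 over EIF5A and EIF4EBP1 over EIF4EBP2, and HGV from all others for EIF4G1 over EIF4G2.

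Per kilobase of the canonical transcript, the highest mean levels in LG were those of EIF1 at 571 CPM per kb, EIF4G2 at 285, EIF6 at 240, EIF5A at 236 and EIF3L at 235. In HGV they were EIF1 at 364, EIF6 at 186, EIF3L at 184 and EIF4A2 at 182 CPM per kb, with EIF4G2 at 93.6. The lowest of the single-copy factors was EIF4E3, at 0.0462 CPM per kb in LG and 0.563 in HGV, compared with 5.29 and 5.87 for EIF4E. The transcript in use was not known, so these values are approximate. Of the 50-base stretches of EIF3L and EIF6, 56.6% and 23.0% also occur in other genes, so their levels are less certain. Together the 62 genes took 0.948% to 1.02% of reads in LG, 0.907% to 0.934% in HG, 0.849% to 0.882% in LGV and 0.749% to 0.783% in HGV, and the 4 ranges did not overlap.

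The 12 pseudogenes were at or below 3.82 CPM in every library. EIF4BP3, a copy of EIF4B, fell with VPA by 0.77 ± 0.23 (FDR 0.0129) in LG medium and by 0.94 ± 0.21 (FDR 0.00255) in HG medium and by 0.74 ± 0.25 (FDR 0.0251) in HGV against LGV, and 40.1% of its 50-base stretches are shared with other genes, EIF4B first. EIF4HP2, a copy of EIF4H, fell by 1.15 ± 0.34 (FDR 0.0111) in HGV against LGV, from 1.41, 1.4 and 2.3 to 1.13, 0.476 and 0.765 CPM. With library size alone EIF4HP2 also passed as a rise in LGV against LG, and 3.1% of its 50-base stretches are shared with other genes. Reads that fit both a parent and its copy cannot be assigned. EIF2S2P3, EIF2S2P4, EIF3EP1, EIF3FP3, EIF4A1P10, EIF4BP6, EIF4BP7, EIF4BP8, EIF1AXP1 and EIF4HP1 passed no test in the comparisons in which their counts were high enough.

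A list of 37 regulators of initiation was read beside the factors, namely the kinases and phosphatases of eIF2 alpha, the mTOR pathway, eIF4E kinases, poly(A)-binding proteins and their partners, and scanning or recycling factors. With VPA 3 rose and 14 fell in LG medium (8.11% and 37.8% of the list, against 21.7% and 19.9% of all genes). In HG medium 2 rose and 10 fell (5.41% and 27%, against 25.8% and 20.2% of all genes). PAIP2B, an inhibitor of poly(A)-binding protein, measured 1.27, 1.32 and 1.91 CPM in LG, 2.09, 1.79 and 1.54 in HG, 6.87, 6.40 and 5.95 in LGV, and 13.2, 11.3 and 12.6 in HGV, and DEPTOR, an inhibitor of mTOR, went from at most 4.96 CPM without VPA to at least 7.47 with it. PAIP2B rose by 2.09 ± 0.23 (FDR 5.52e-06) and 2.78 ± 0.17 (FDR 1.03e-07), and DEPTOR by 1.35 ± 0.20 (FDR 8.61e-05) and 1.46 ± 0.14 (FDR 5.16e-06). AKT1S1, the mTOR inhibitor also known as PRAS40, had -1.39 ± 0.15 (FDR 5.94e-06) and -1.59 ± 0.11 (FDR 2.72e-07), from at least 77.9 CPM without VPA to at most 51.1 with it. MLST8 and RPTOR, subunits of mTOR complexes, fell by 1.01 ± 0.15 and 0.86 ± 0.13 in LG medium and by 0.67 ± 0.12 and 0.67 ± 0.11 in HG medium. ABCE1, which splits ribosomes after termination, CYFIP1, which binds eIF4E, LARP1, PAIP1 and SESN2 also fell in both media. DDIT4, EIF2AK1, IMPACT, MKNK2, PPP1CA and TSC2 passed as falls in LG medium, and EIF2AK4 and PABPC4 in HG medium. With library size alone the LG calls of ABCE1, EIF2AK1, IMPACT, MKNK2, PAIP1, PPP1CA and TSC2 and the HG call of EIF2AK4 were lost.

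With glucose 0 regulators rose and 8 fell without VPA by edgeR's quasi-likelihood test, and 5 rose and 12 fell with it. The falls were 21.6% of the list without VPA (all genes 12.7%) and 32.4% with it (all genes 19.5%), and the rises 0% and 13.5% (all genes 12% and 21.2%). Without VPA 1 regulator, DEPTOR, had a rise with an unadjusted p under 0.05 and was called by the likelihood ratio test and by DESeq2. EIF2AK3, the eIF2 alpha kinase PERK, measured 55.2, 55.0 and 45.5 CPM in LG, 29.3, 22.2 and 25.1 in HG, 54.0, 57.4 and 59.9 in LGV, and 29.7, 22.8 and 30.1 in HGV. It fell by 1.00 ± 0.14 (FDR 7.31e-05) and 1.07 ± 0.13 (FDR 9.46e-06). PPP1R15A, the stress-induced subunit of the phosphatase that reverses it, fell by 0.86 ± 0.15 (FDR 0.000519) and 1.09 ± 0.12 (FDR 3.1e-06), and PPP1R15B, its constant counterpart, by 0.48 ± 0.13 (FDR 0.00999) and 0.52 ± 0.14 (FDR 0.00497). MKNK2, SESN2, DDX3X, AKT1S1 and LARP1 were the other falls without VPA, at -0.67, -0.62, -0.58, -0.48 and -0.35, of which LARP1 was lost with library size alone.

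With VPA present, DDIT4 rose with glucose by 0.98 ± 0.12 (FDR 1.1e-05), PAIP2B by 0.93 ± 0.16 (FDR 0.000159) and IMPACT by 0.84 ± 0.25 (FDR 0.0131), while DDX3X fell by 0.82 ± 0.14 (FDR 0.000173), AKT1S1 by 0.71 ± 0.14 (FDR 0.000606) and EIF2AK2, the kinase PKR, by 0.70 ± 0.12 (FDR 0.000215). EIF2AK2 also rose with VPA in LG medium by 0.55 ± 0.12 (FDR 0.00267), where the LGV libraries had 70.8, 71.8 and 63.9 CPM and the LG libraries 41.1, 52.6 and 48.8. No regulator passed the glucose by VPA interaction by edgeR's quasi-likelihood test, where 3 had an unadjusted p under 0.05 and the smallest FDR were 0.0889 for DDIT4 and 0.0983 for EIF2AK2. Both passed it by the likelihood ratio test and by DESeq2, DDIT4 with 0.77 ± 0.18 and EIF2AK2 with -0.78 ± 0.19 on the log2 scale in the quasi-likelihood fit. With library size alone 1 regulator rose and 7 fell in HG against LG (14.1% and 8.39% of all genes), 9 and 7 in LGV against LG (28.2% and 12.3%), 5 and 9 in HGV against HG (32% and 15%), and 5 and 10 in HGV against LGV (23.2% and 14.2%). The median log2 fold change of the list in this order was -0.18, -0.13, -0.14 and -0.20 after TMM scaling. Scaled by library size alone it was -0.08, 0.03, -0.02 and -0.11.

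**Figure D5:**
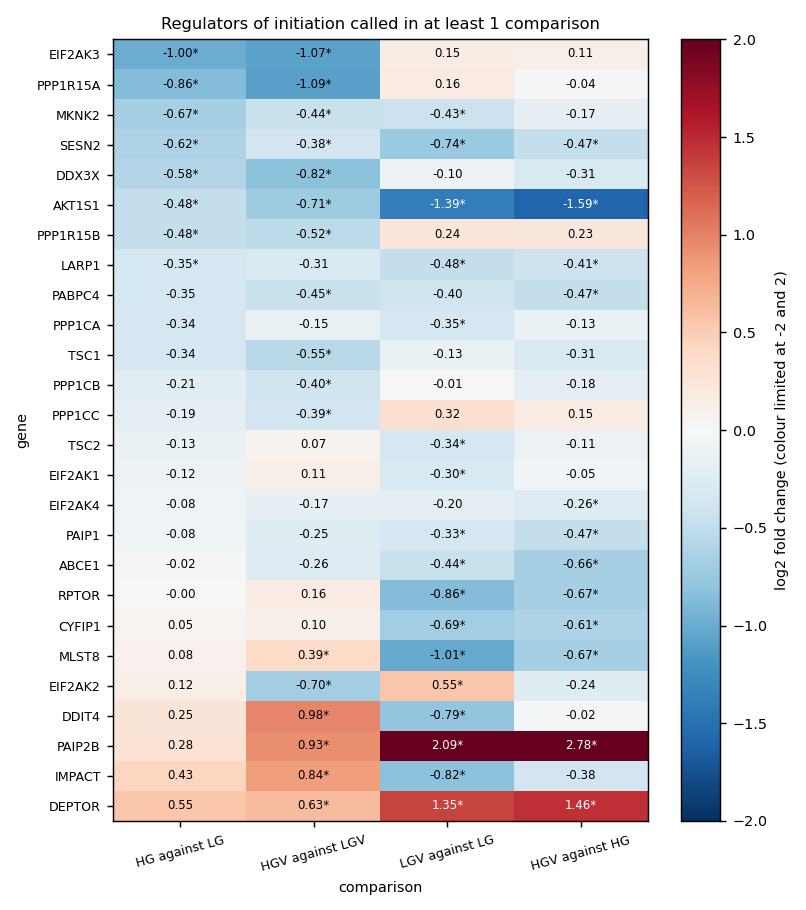
The log2 fold change (colour and printed value) of the 26 regulators of initiation called in at least 1 comparison (rows) in the 4 comparisons (columns), with an asterisk where the FDR was 0.05 or less. With TMM factors EIF2AK3 and PPP1R15A are called in the glucose columns only (with library size alone EIF2AK3 also rose in LGV against LG), PAIP2B and DEPTOR are high with VPA, and AKT1S1 is below 0 throughout.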

How the data were processed

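RNA of 12 HepG2 libraries, 3 per group, was sequenced after poly(A) selection with a directional kit. The authors aligned trimmed single-end reads to GRCh37 with STAR and assigned them to Ensembl genes with featureCounts. The values they deposited are raw counts per gene for 16389 genes, of which those averaging under 10 reads had been omitted. The strand setting is not given in the sources used here. Several factors have exons that overlap a gene on the other strand, among them EIF3A (NANOS1), EIF4G2 (CTR9) and EIF5A (GPS2). If strand was not used, reads in these overlaps cannot be assigned.

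Each comparison was fitted with its own libraries (the interaction with all 12) in edgeR 4.0.16 under R 4.3.3 with the quasi-likelihood F test and TMM factors. A gene entered the test if its count averaged 10 or more in these libraries, and an FDR of 0.05 or less made a call. SE is the absolute log2 fold change over the square root of F. Levels are CPM with TMM factors. The labels do not say whether libraries of a group came from separate cultures, so p-values measure only the spread between these libraries, which may be technical. Floors of 3 reads cover counting error only.

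The members, the list of regulators and the markers were chosen with earlier results of these data known. Genes named were, per comparison, up to 10 called members with the largest change, 12 fixed factors (EIF1, EIF2S1, EIF2B5, EIF3A, EIF4E, EIF4A1, EIF4G1, EIF4EBP1, EIF5, EIF5A, EIF5B and EIF6), related gene pairs, the eIF3 subunits and up to 8 called regulators. Other genes of these lists are named where a group is accounted for. Alternatives were scaling by DESeq2 size factors, by upper quartile or by library size alone, no filter, 1 CPM in at least 3 libraries, the likelihood ratio test, the Wald test of DESeq2 1.42.0, a replicate block, 1 fit of 12 libraries, an FDR of 0.01 and leaving out each library. The edgeR step was tested on simulated data. Positions, exon overlaps and transcript lengths came from GENCODE v44 lifted to GRCh37, which placed 62 of 62 members, and stretches of 50 bases were compared with all its transcripts. EIF4EBP3 and EIF4E1B are not analysed here. Plots were drawn with matplotlib 3.10.9 in Python 3.11.15.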

Additional observations from a re-analysis of the deposited data

How the results depend on the processing

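No called factor changed direction in any alternative. For HG against LG, the 8 factors called became 5 with upper quartile scaling, 5 with library size alone, 5 with the replicate block and 1 at an FDR of 0.01, and 1 to 16 when a library was left out, with 1 without LG replicate 1 or HG replicate 2 and 16 without LG replicate 3. The 3813 calls over all genes became 3824, 3469, 3351 and 1852 in these settings in order, and 1933 to 5338 when a library was left out. LGV against LG had 20 calls, 12 at an FDR of 0.01 and 13 to 24 without a library (all genes 6638, 4607 and 4942 to 6986). HGV against LGV had 16 calls, 8 at an FDR of 0.01 and 8 to 21 without a library (all genes 6604, 4263 and 4516 to 7228). HGV against HG had 26 calls and 17 to 28 without a library (all genes 7456 and 6083 to 7793). The interaction had 0 calls and 0 to 0 without a library (all genes 7 and 1 to 217). Where the main result had calls, other alternatives stayed within 1.5 times the count. Of 45 calls of named factors, 17 were lost at an FDR of 0.01, 11 with library size alone, 10 with upper quartile scaling and 20 when some library was left out. The cause of these losses was not tested.

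Replicate numbers were not used to pair libraries in the main fits. Deviations of same-numbered libraries correlated at -0.25 to 0 in HG against LG and -0.23 to 0.38 in LGV against LG. The range was -0.22 to 0.31 in HGV against HG and 0 to 0.25 in HGV against LGV. For libraries of different number it was -0.08 to 0.22, -0.47 to 0.48, -0.48 to 0.42 and -0.23 to 0.15 in this order. These values do not settle whether libraries were paired. With the replicate block 5, 22, 30 and 18 factors were called in HG against LG, LGV against LG, HGV against HG and HGV against LGV, and 0 for the interaction. Over all genes the block called 3351 of 15452, 6971 of 15944, 8229 of 16188 and 7308 of 16208, and 13 of 16389 for the interaction. Depth limits EIF4E3, EIF2S3L, EIF5AL1 and the pseudogenes, which had few reads. EIF4A1, EIF3C and EIF3CL also had low counts. Of their 50-base stretches 100%, 98.8% and 98.7% occur in other genes, which is a limit apart from depth.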
